A study of Mus musculus with 4 samples.

Results

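Early activation of Nr4a-TKO naive CD4+ T cells under conditions that induce regulatory T (iTreg) cells was read after 3 h of culture, from 1 array labelled Nr4a-TKO naive T and 1 array labelled Nr4a-TKO iTreg 3 h, which are 2 of the 4 arrays analysed. A gene was included when at least 1 of its probes lay well above the local background on at least 1 of those 2 arrays, which held for 20070 of the 27192 named genes on the array. Nr4a-TKO denotes triple knockout of Nr4a1, Nr4a2 and Nr4a3 on the C57BL/6J background, made with floxed Nr4a1 and Nr4a2 alleles and a germline Nr4a3-/- allele. The Cre driver that recombines the floxed alleles is not given in the sources used here. Both Nr4a-TKO arrays descend from mixed bone marrow chimeras in irradiated Rag2-/- hosts, which received equal parts of WT Ly5.1 marrow and Nr4a-TKO Ly5.2 marrow with the Foxp3 hCD2-hCD52 reporter. The donor-type naive cells were sorted as CD4+, CD25 low, CD44 low and Foxp3 reporter negative, among other markers. The WT naive cells, used for comparison, came from hosts of WT marrow alone. For iTreg culture, cells met plate-bound anti-CD3 (2 µg/ml) with anti-CD28 (0.5 µg/ml), antibodies that neutralise IFN-γ and IL-4, IL-2 (10 ng/ml) and TGF-β1, for which the protocol gives both 0.2 and 0.5 ng/ml. No group had a replicate array, so every difference is a value between a pair of arrays, with no test, and its precision is limited by the number of arrays.

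T cell receptor (TCR) ligation with CD28 co-stimulation opens calcium, MAP kinase and NF-κB signalling within minutes. Immediate early genes such as the Egr, Fos and Nr4a families are transcribed first, followed by cytokines, feedback inhibitors and, under Myc, the genes that build ribosomes and nucleotides. Naive T cells are kept quiescent by factors such as Klf2 and Foxo1, which sustain lymph node homing receptors, and these transcripts are lost on activation. The Nr4a proteins are orphan nuclear receptors that TCR signals induce, and they are known for their part in Treg development and in restraining T cell activation.

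Signals are given as the log2 processed intensity of a probe, scaled to the 75th percentile of its array, so that 0 is the brightness of a probe at the upper quartile, and a change is the 3 h signal minus the naive signal of 1 probe. Levels of different probes are not set against each other. Between 65.63% and 67.66% of the probes were well above background on the Nr4a-TKO arrays, and no spot was saturated. Probes printed repeatedly gave an SD of 0.062 for a log2 change from spot noise alone, while probes of the same gene differed in their change by a median SD of 0.28 over 6876 genes. The 6 measured T cell markers had signals from 2.69 to 6.07 on the naive array and from 2.67 to 5.36 at 3 h. All 8 B cell and MHC class II markers were well above background, and their summed level was 4.06 on the naive array and 4.18 at 3 h, against 3.43 and 3.14 on the WT arrays. Both CD8 markers were detected, with a summed level of 0.18 on the naive array and -0.73 at 3 h. Of the myeloid markers 5 of 7 were well above background on each array, with Adgre1 not well above background on either and a summed level of 8.62 and then 8.33 that came mainly from 1 Itgam probe. Of the erythroid markers 3 of 4 were detected (summed level 0.22, then 0.63, with Hbb-b1 not well above background), as were 3 of 5 NK cell markers (-0.81, then -1.87, with Ncr1 and Klrd1 not well above background). The part of other cells in the changes below was not tested, and a lower signal cannot be told apart from fewer cells that carry the transcript.

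The labels were checked on the targeted genes. Nr4a1 had 1 probe (mm9 chromosome 15, from 101105071 to 101105130), with a signal of 1.56 on the naive array labelled Nr4a-TKO and 5.19 on its 3 h counterpart. This is a change of 3.63, beside 4.42 on the WT arrays. The brighter Nr4a2 probe (chromosome 2, from 56960000 to 56960059) went from -0.34 to 3.60, a change of 3.93 against 2.73 on the WT arrays, and the other Nr4a2 probe changed by 4.42 against 3.89. Transcripts of both floxed genes thus rose on the arrays labelled Nr4a-TKO. Nr4a3 had 3 probes that did not agree. The brightest (chromosome 4, from 48062977 to 48063036) went from 0.20 to 3.10, a change of 2.90 with 2.73 on the WT arrays. The probe from 48064521 to 48064580 changed by 0.12 and on the WT arrays went from 0.89 to 2.19, and the probe from 48080690 to 48083876 changed by 3.35 against 5.48. A probe outside the deleted part of an allele checks nothing, and which parts the alleles lack was not analysed here, so the arrays are called by their labels throughout.

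Over all genes measured, 1897 were more than 2-fold higher at 3 h (9.45%) and 2190 more than 2-fold lower (10.9%), around a median change of -0.08. With a normexp offset of 50 in place of the scanner's own background correction, these counts were 929 and 666, so that 58.2% of the genes past 2-fold were higher instead of 46.4%. More than 4-fold changes were seen in 373 genes upward and 586 downward, and more than 16-fold changes in 23 and 40. In 258 of the higher and 471 of the lower genes the dimmer array was not well above background, so their change is a lower bound in size. Described by family, most members rose among ribosome assembly, protein synthesis and nucleotide synthesis genes. A smaller number of transcription factors, cytokines and receptors rose more steeply. Falls past 2-fold were seen in 8 of 15 homing receptors, 10 of 19 quiescence factors, 8 of 18 cytokine receptor chains and 11 of 19 interferon-stimulated genes. The 10 reference genes stayed within 2-fold, from -0.79 to 0.88. The lists were drawn up with results of these data known, so their counts describe these arrays and are no independent evidence of a direction.

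**Figure D1:**
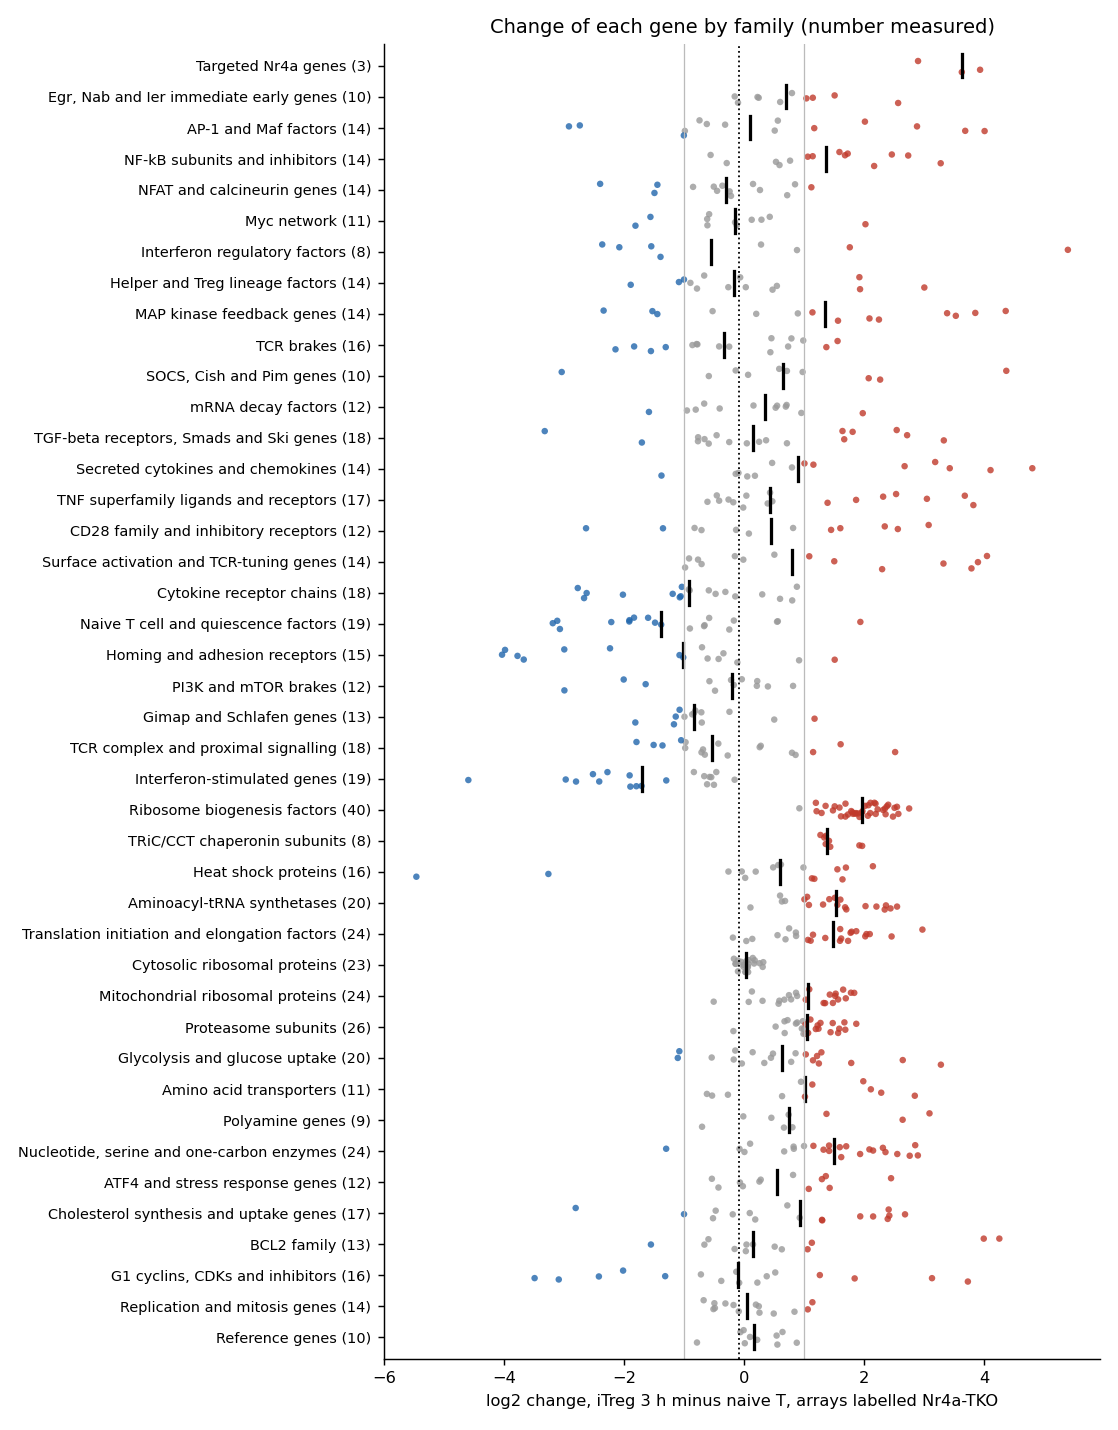
Each point is a gene, placed by its log2 change over 3 h of culture (arrays labelled Nr4a-TKO), in rows by family with the number measured in parentheses. Red and blue points are past 2-fold (grey lines), black bars are family medians and the dotted line is the median of all genes, -0.08; ribosome biogenesis factors form a narrow cloud around 1.97 and cytosolic ribosomal proteins one around 0.04.

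Among the immediate early genes, 4 of 10 measured Egr, Nab and Ier genes rose and none fell. Egr2, a zinc finger factor of TCR signalling, went from 3.69 to 6.25 (2.57). Egr1 was already bright on the naive array and went from 4.62 to 6.13 (1.51). Egr3 went from 0.57 to 1.71 (1.14), with its other probes between 0.85 and 1.06, and Ier5 rose by 1.04. The AP-1 and Maf list split, with 5 of 14 measured genes higher and 3 lower. Fosl2, a Fos-family partner of Jun proteins, went from 1.06 to 5.07 (4.01; 3.25 by its other probe). Atf3, a stress-induced bZIP factor, went from -3.00 to 0.68 (3.69). The small Maf gene Mafg rose by 2.88 and Maff by at least 2.01. In contrast Fos fell from 1.18 to -1.74 (-2.92) and Jun from 1.33 to -1.41 (-2.74), and they fell by 2.55 and 3.39 on the WT arrays. Batf, a factor of Th17 differentiation, fell by 1.01. Junb had a signal of 7.86 and then 7.54 and did not pass 2-fold.

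NF-κB genes rose in 9 of 14 cases and fell in none, with a median change of 1.37. Of the subunits, Rel went from 2.15 to 4.89 (2.73 by both of its probes), Nfkb1 from 0.10 to 2.56 (2.46) and Nfkb2 from -0.27 to 1.90 (2.17). The other probes of Nfkb1 gave 2.37 to 3.00 and that of Nfkb2 gave 2.82. Some inhibitors of the pathway rose too. Nfkbid, which encodes the nuclear inhibitor IκBNS, went from 1.47 to 4.75 (3.28). Tnfaip3, the ubiquitin-editing enzyme A20, changed by 1.68, Nfkbib by 1.59, Nfkbia, encoding IκBα, by 1.14 and Nfkbie by 1.06. Bcl3 (-0.56), Tnip1 (-0.29) and Nfkbiz (0.53) stayed within 2-fold. Relb was within 2-fold by its brightest probe (0.59), while its other probes gave 1.93 to 2.05. Every NF-κB gene past 2-fold with more than 1 probe was past 2-fold on all of them (5 of 5).

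Irf4, the interferon regulatory factor that TCR strength sets, had the largest rise of any list member by its brightest probe. Its signal went from 0.50 on the naive array to 5.90 at 3 h, a 42.2-fold rise (5.40), and its other probe gave 5.85. On the WT arrays the change was 6.53, from a lower naive signal of -0.82. Irf8 rose by 1.76, although its other probe gave 0.41. The remaining factors of the family fell or stayed within 2-fold: Irf7 changed by -2.37, Irf9 by -2.08, Irf1 by -1.55 and Irf2 by -1.40 (-0.34, a bound, by its other probe). In the NFAT list 1 of 14 genes rose (7.14%) and 3 fell (21.4%), beside 9.45% and 10.9% of all genes. Nfatc1 was higher by 1.12 (0.49 by its other probe). The lower genes were Ppp3cc, a calcineurin subunit (-2.40), Stim1, the calcium sensor of the endoplasmic reticulum (from -0.02 to -1.51, with -1.05 and -0.84 by its other probes), and Nfatc3 (-1.45). None of the 3 other Nfatc3 probes passed 2-fold (-0.76 to -0.09). In the Myc network 1 of 11 genes rose (9.09%) and 2 fell (18.2%), again beside 9.45% and 10.9% of all genes. Myc itself had a naive signal of 2.98 and rose 4.06-fold (2.02, and 2.17 by its other probe). Its antagonists Mxd4 and Mxi1 fell by 1.81 and 1.56, although the other Mxi1 probe gave -0.70.

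Lineage factors divided between the helper programmes. Rora, a nuclear receptor of Th17 and innate-like cells, went from 0.23 to 3.23 (3.00; 2.53 by its other probe), against 0.79 on the WT arrays. Bcl6, the repressor of follicular helper cells, changed by 1.92. Gata3, the Th2 factor, fell from 2.19 to 0.29 (-1.89), while Prdm1 (from -0.96 to -1.96) and Hlx (at least -1.09) were just past 2-fold downward. Foxp3, which defines Treg cells, had a signal of -0.91 on the naive array and -0.88 at 3 h, a change of 0.03. Its probe was higher on both WT arrays, at 0.43 and 0.60.

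Promoter sequence was read for 14618 of the measured genes, which had 18195 RefSeq promoters of 300 bases on GRCm38.p6, each from 250 bases before to 50 bases after a transcript start. A palindromic E-box (CACGTG), the site known to bind Myc with Max, lay in 13.2% of the 1792 promoters of genes over 2-fold higher, in 7.69% of the 2017 promoters of genes over 2-fold lower and in 8.63% of all measured ones. The cAMP response element (TGA and TCA around CG) was in 3.07%, 1.44% and 2.50%, respectively. The Egr site (GCG, then G or T, then GGGCG) was in 5.92%, 4.96% and 5.06%, and the AP-1 site (TGAGTCA or TGACTCA) in 3.46%, 4.76% and 4.29%. The NBRE (AAA followed by GGTCA), the monomer site of Nr4a proteins, was in 1.40% of the promoters of higher genes, 1.64% of those of lower genes and 1.28% of all. Over all 32851 promoters of the table the E-box share was 7.15% and that of the NBRE 1.51%. Both strands were searched, matches of different motifs may overlap, and a match describes letters and not binding.

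**Figure D2:**
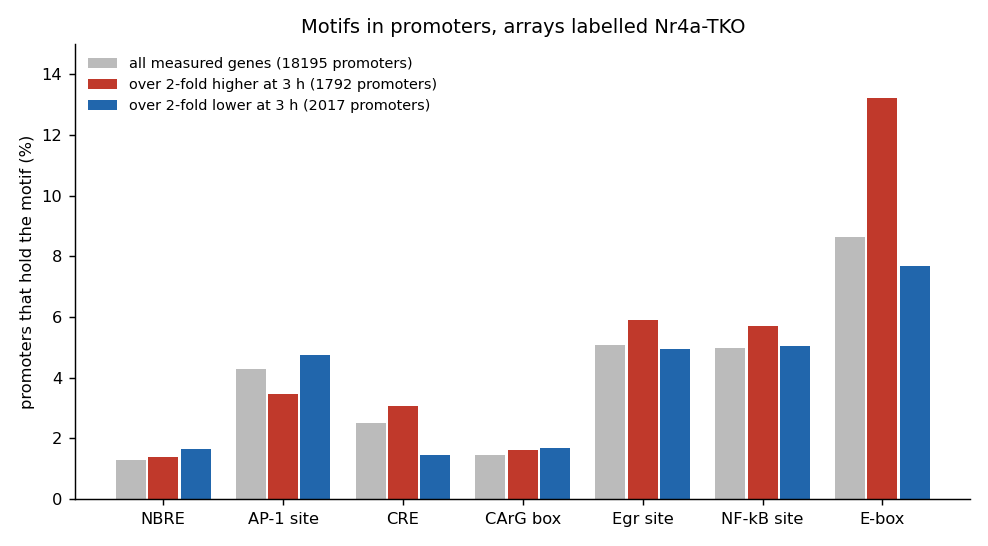
Bars give the percentage of 300-base promoters that hold each motif on either strand, for all measured genes (grey), genes over 2-fold higher at 3 h (red) and genes over 2-fold lower (blue) on the arrays labelled Nr4a-TKO. The E-box has the widest gap, 13.2% against 7.69%.

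The 16 promoters found for the NF-κB list belong to 11 genes, so some genes are counted more than once. Of these promoters 10 (62.5%) held an NF-κB site (textbook κB consensus of 10 bases). The site was in 4.96% of the promoters of measured genes, 5.69% of those of higher genes and 5.06% of those of lower genes. Windows of 80 bases upstream of the start are shown for 4 members of the family and for Tnfrsf9, the co-stimulatory receptor 4-1BB. They were chosen because they hold the site and the gene rose, and the capitals mark the κB letters, with overlapping matches joined.
Rel, chr11:23771020-23771099, minus strand: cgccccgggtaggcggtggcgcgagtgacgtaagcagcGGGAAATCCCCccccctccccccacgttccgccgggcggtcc
Nfkb2, chr19:46304657-46304736, plus strand: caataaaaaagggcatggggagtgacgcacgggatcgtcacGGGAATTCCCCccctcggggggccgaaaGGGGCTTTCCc
Nfkbia, chr12:55492648-55492727, minus strand: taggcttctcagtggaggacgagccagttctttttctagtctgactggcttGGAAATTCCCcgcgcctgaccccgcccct
Nfkbid, chr7:30422166-30422245, plus strand: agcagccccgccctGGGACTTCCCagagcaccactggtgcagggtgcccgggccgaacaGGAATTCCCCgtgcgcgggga
Tnfrsf9, chr4:150927919-150927998, plus strand: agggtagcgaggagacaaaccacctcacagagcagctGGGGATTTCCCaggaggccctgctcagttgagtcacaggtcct
The κB letters began 92 bases before the start in Rel, 29 in Nfkbia and 43 in Tnfrsf9, while Nfkb2 had runs that began at 39 and 11 bases and Nfkbid at 226 and 181 bases. A second set shows the CArG box, the site of serum response factor, in promoters of genes that rose early, with Dusp5 holding 2 boxes side by side.
Egr2, chr10:67537769-67537848, plus strand: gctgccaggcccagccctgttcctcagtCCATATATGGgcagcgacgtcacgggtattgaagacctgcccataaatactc
Dusp5, chr19:53529025-53529104, plus strand: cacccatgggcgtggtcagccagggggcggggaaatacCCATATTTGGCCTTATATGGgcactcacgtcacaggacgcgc
The CArG box, CC and GG around 6 bases of A or T, was in 41.7% of the 12 promoters of the Egr, Nab and Ier list, which belong to 8 genes. It was in 1.43% of the promoters of measured genes, 1.62% of those of higher genes and 1.69% of those of lower genes. The E-box is shown in genes of ribosome assembly, translation and the cell cycle, in each of which the gene was more than 2-fold higher at 3 h.
Nop2, chr6:125131783-125131862, plus strand: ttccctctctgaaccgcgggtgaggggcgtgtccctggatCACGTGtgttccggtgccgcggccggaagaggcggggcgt
Eif4e, chr3:138527168-138527247, plus strand: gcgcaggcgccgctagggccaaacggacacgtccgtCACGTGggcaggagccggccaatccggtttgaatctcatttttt
Iars, chr13:49682030-49682109, plus strand: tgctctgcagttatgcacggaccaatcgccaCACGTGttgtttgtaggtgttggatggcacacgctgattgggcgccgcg
Cdk4, chr10:127063355-127063534, plus strand: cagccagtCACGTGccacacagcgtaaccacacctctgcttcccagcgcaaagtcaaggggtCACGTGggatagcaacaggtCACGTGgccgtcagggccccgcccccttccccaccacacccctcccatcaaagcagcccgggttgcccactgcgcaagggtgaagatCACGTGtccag
Cdk4 held 4 E-boxes within 172 bases of its start. By list, an E-box was present in 8 of 24 promoters of translation factors (33.3%), 4 of 13 of aminoacyl-tRNA synthetases (30.8%) and 7 of 38 of ribosome biogenesis factors (18.4%). The promoters of these lists belong to 18, 13 and 34 genes, respectively. The E-box was also present in 3 of 20 promoters of cytosolic ribosomal proteins, none of which passed 2-fold. Among other lists with many higher genes it was in 5 of 22 promoters of mitochondrial ribosomal proteins, 4 of 24 of nucleotide, serine and one-carbon enzymes, 2 of 24 of proteasome subunits (8.33%) and 0 of 9 of TRiC/CCT subunits.

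In the list of MAP kinase feedback genes, which also holds 3 Rgs regulators of G-protein signals, 8 of 14 measured genes rose and 3 fell, with a median change of 1.35. Dusp4, a nuclear ERK phosphatase, went from -0.91 to 3.45 (4.36; 2.54 by its other probe). Dusp5, which also acts on ERK, went from -1.07 to 2.46 (3.53; 3.08 by its other probe). Spry1, a Sprouty inhibitor of Ras signalling, went from -0.39 to 3.47 (3.85). On the WT arrays its change was 5.52, from a lower naive signal of -2.43 to 3.09. Rgs16, which shortens G-protein signals, rose by at least 3.38, and Rgs1 rose by 2.25. Dusp1, a phosphatase of JNK and p38, instead fell from 2.42 to 0.08 (-2.35) while its probe read 1.90 and 2.06 on the WT arrays (0.16). Dusp10 and Rgs2 fell by 1.53 and 1.45.

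Brakes of the TCR itself stayed within 2-fold in 10 of 16 cases, with 2 higher and 4 lower. These are 12.5% and 25%, beside 9.45% and 10.9% of all genes. Ubash3b, the phosphatase Sts-1, rose by 1.56 and the adaptor Sla by 1.37. Its relative Ubash3a fell by 2.15, and so did Dgka (-1.84) and Dgkz (-1.31), the kinases that remove diacylglycerol, with Pag1 at -1.56 (-1.65 and -0.97 by its other probes). The ubiquitin ligase Cblb was just within 2-fold at 0.98, against 1.90 on the WT arrays. In the cytokine feedback list, Cish, an inhibitor of STAT5 signalling, went from -2.02 to 2.35 (4.37). Pim1 and Pim3, kinases downstream of STAT5, rose by 2.27 and 2.08. Socs3, which restrains IL-6 receptor signalling, went the other way, from 1.19 to -1.86 (-3.04). Of 12 mRNA decay genes 10 stayed within 2-fold, with Btg3 higher by 1.98 and Tob1 lower by 1.59. The shares higher and lower were 8.33% each, near the 9.45% and 10.9% of all genes.

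Within the TGF-β list, whose ligand was present in the culture, 6 of 18 genes rose and 2 fell. Tgfbr1, the type I receptor, went from 0.98 to 4.30 (3.33), and its other 3 probes gave 2.86 to 3.24. On the WT arrays the same probe changed by 1.61. The type II receptor Tgfbr2 fell from 1.59 to -0.11 (-1.71) and the co-receptor Tgfbr3 from 0.92 to -2.41 (-3.33), so the receptor subunits moved in opposite directions. Of the genes known to be induced by TGF-β or to restrain it, Tgif1 (2.72), Pmepa1 (2.54), Tgif2 (1.81) and Skil (1.64) rose, as did Tgfb1 itself (1.67). Others stayed within 2-fold, Ski at -0.77, Smurf2 at -0.66 and Smurf1 at -0.59 among them. Tgif2 was 0.28 to 0.77 by its other 3 probes. The Smad genes stayed within 2-fold, including the inhibitory Smad7 (-0.25).

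**Figure D3:**
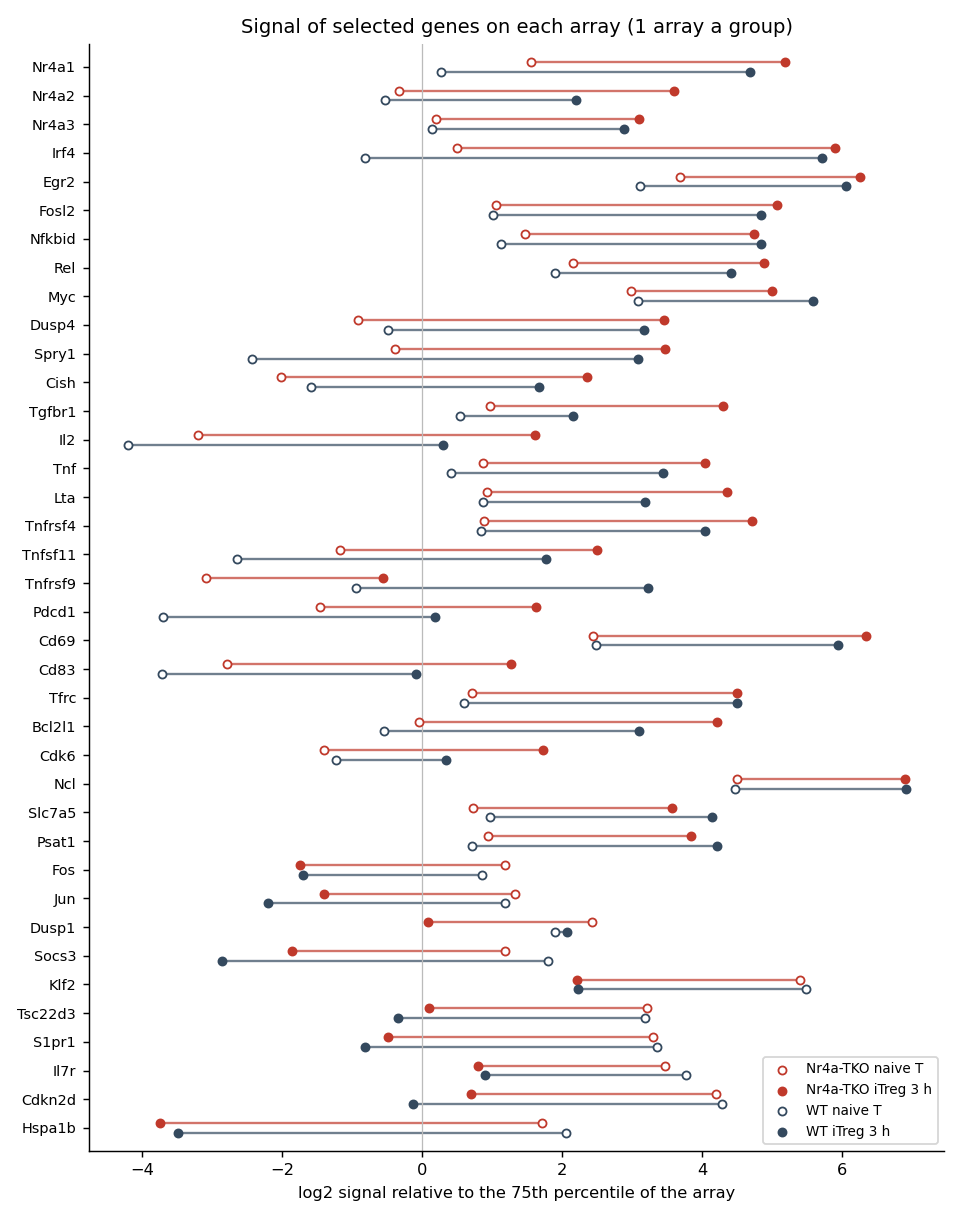
Open circles are naive T and filled circles iTreg at 3 h, joined by a line, for arrays labelled Nr4a-TKO (red) and WT (dark blue), 1 array a group; the x axis is the log2 signal relative to the 75th percentile of the array. Ncl rises by 2.40 on the arrays labelled Nr4a-TKO and 2.43 on the WT arrays and Irf4 by 5.40 and 6.53, while Dusp1 falls from 2.42 to 0.08 on the arrays labelled Nr4a-TKO alone.

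Of the secreted factors, 7 of 14 measured genes rose and 1 fell. Il2, the T cell growth factor, went from -3.20 to 1.61 (4.80; 5.47 by its other probe). Lif, an IL-6 family cytokine, was not well above background in naive cells and rose at least 17.2-fold (4.11). Lta and Tnf rose from 0.93 to 4.35 (3.43) and from 0.87 to 4.05 (3.19), and the chemokine Ccl4 rose by 2.67. Ifng, whose protein was neutralised in the culture, was at least 1.15 higher, with a 3 h signal of -2.84. Il4, Il5, Il10, Il17a, Csf2 and Ccl3 were not well above background on either array, so no change can be given for them. Csf1 was the gene that fell (at least -1.38).

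TNF superfamily genes rose in 7 of 17 cases and fell in none. Tnfrsf4, the co-stimulatory receptor OX40, went from 0.89 to 4.71 (3.82). Tnfsf11, the ligand RANKL, went from -1.18 to 2.50 (3.68), and Tnfrsf18, encoding GITR, from 1.02 to 4.06 (3.05). These 3 also rose by 2.52 to 4.41 on the WT arrays. Tnfrsf9 went from -3.09 to -0.56 (2.53; 1.43 by its other probe), against a change of 4.17 and a 3 h signal of 3.23 on the WT arrays. Tnfsf8, the CD30 ligand, rose by 2.32, against 1.05.

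Among CD28 family members and inhibitory receptors 5 of 12 rose and 2 fell. Pdcd1, encoding PD-1, went from -1.46 to 1.62 (3.08). Its ligands Cd274 and Pdcd1lg2 rose by 2.56 and 2.34, the latter beside 0.30 on the WT arrays, where the naive signal was higher (-1.81 against -3.53). Icos rose by 1.45. Ctla4, the inhibitory counterpart of CD28, fell from 0.59 to -0.77 (-1.35), and Cd96 fell by 2.64. Surface activation genes rose in 7 of 14 cases. Cd69, the early retention receptor, went from 2.44 to 6.34 (3.90; 1.96 by its other probe). Cd83 went from -2.78 to 1.27 (4.05), Tfrc, the transferrin receptor, from 0.72 to 4.51 (3.79) and Slamf1 from 0.19 to 3.52 (3.32). Cd44, the antigen-experience marker on which the cells had been sorted low, went from 0.75 to 3.05 (2.30; 1.57 to 1.85 by its other probes), against 0.89 on the WT arrays.

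Cytokine receptor chains had the reverse pattern, with none of 18 higher and 8 lower. Il18r1 fell from -0.37 to -3.15 (-2.78), Il7r, the receptor of homeostatic IL-7, from 3.47 to 0.80 (-2.67), and Il6ra from 3.26 to 1.24 (-2.02). Their other probes fell too, by 3.08, 3.56 and 1.95, respectively. Il10ra fell at least 2.63 by its brightest probe but changed by -0.10 by the other. The interferon receptor chains Ifngr1, Ifngr2 and Ifnar2 fell by 1.04 to 1.07. Il2ra, encoding CD25, illustrates the limit of using 1 probe. Its brightest probe went from 2.42 to 3.02 (0.60), whereas its other probe was not well above background in naive cells and reached 2.44 at 3 h, a rise of at least 71.2-fold.

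Of 77 naive and quiescence genes 29 fell, 6 rose and 42 stayed within 2-fold. Of 19 quiescence factors 10 fell and 1 rose, with a median change of -1.39. Klf2, which drives the genes of lymphocyte egress, went from 5.40 to 2.21 (-3.19). Tsc22d3, the glucocorticoid-induced GILZ, went from 3.22 to 0.10 (-3.12; -2.63 and -0.77 by its other probes) and Klf3 from 2.19 to -0.88 (-3.07). Tcf7, Ets1 and Lef1 fell by 1.91, 1.92 and 1.39, while Satb1 and Bach2 were at 0.55 and 0.56. Klf10, a TGF-β-inducible relative, was the exception and rose by 1.94, although its other probe gave -0.04. Foxo1 was within 2-fold on its brightest probe (-0.91) and -1.07 on the other. Homing and adhesion receptors followed, with 8 of 15 lower. S1pr1, the egress receptor, fell from 3.30 to -0.48 (-3.78) and Itgb7 from 3.83 to 0.15 (-3.68). P2rx7, an ATP receptor, fell by at least 3.99. Cxcr4 alone rose, from 1.77 to 3.28 (1.51; 1.38 by its other probe), against 0.29 on the WT arrays.

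Among PI3K and mTOR brakes 3 of 12 genes fell (25%) and none rose. The Gimap and Schlafen list had 4 of 13 genes lower (30.8%) and 1 higher (7.69%). In the TCR complex and proximal signalling list 4 of 18 genes fell (22.2%) and 3 rose (16.7%). Over all genes 10.9% fell and 9.45% rose. Pik3ip1, an inhibitor of PI3K, fell by 3.00 (other probes -3.56 and -0.65), Sesn1 by 2.01 and Sesn3 by 1.64. Gimap7, Gimap3 and Gimap9 fell by 1.82, 1.17 and 1.08 (-0.91 by the other Gimap9 probe), Slfn1 fell by 1.14 and Slfn2 rose by 1.17. Of 18 TCR complex and proximal signalling genes, Malt1, a paracaspase upstream of NF-κB, rose by 2.52, Zap70 by 1.61 and the adaptor Lcp2 by 1.15 (other probes 0.12 and 1.19). Prkcq, a protein kinase C of the same route, fell by 1.51 and Cd4 from 4.68 to 3.32 (-1.36). The CD3 chains were between -0.98 and -0.66.

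Interferon-stimulated genes were lower throughout, with 11 of 19 past 2-fold, none higher, and a median of -1.71. Ifit3 went from 0.29 to a signal not well above background, at least 24.3-fold lower (-4.60). Ifit2 fell from 0.43 to -2.55 (-2.98) and Rsad2 by 2.42. Every one of the 19 had a change below 0, the smallest being -0.16 for Ifi35. With normexp and an offset of 50 the median was -0.57. On the WT arrays 10 of 18 fell, with a median of -1.74.

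Ribosome assembly genes rose almost without exception. Of 40 ribosome biogenesis factors 39 rose, with a median change of 1.97, and the remaining one, Bop1, was just within 2-fold (0.92). Nolc1, a nucleolar phosphoprotein, went from 3.06 to 5.81 (2.75), Nop2, an rRNA methyltransferase, from 0.32 to 2.89 (2.57) and Ncl, nucleolin, from 4.50 to 6.90 (2.40). The same 39 rose on the WT arrays, with a median of 2.19. Of the 22 that had more than 1 probe, 18 were past 2-fold on all of them. The cytosolic ribosomal proteins, the products that this machinery assembles, gave no change past 2-fold in 23 genes, with values from -0.17 to 0.32 and a median of 0.04. Mitochondrial ribosomal proteins were between these groups, with 13 of 24 higher and a median of 1.06.

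Other protein synthesis genes rose together. All 8 subunits of the TRiC/CCT chaperonin, which folds actin and tubulin, rose by 1.27 to 1.97. Of 20 aminoacyl-tRNA synthetases 16 rose, led by Iars, which went from -0.60 to 1.95 (2.55). Aars rose by 1.70 on its brightest probe, but its 3 other probes ranged from -3.69 to 1.42. Of 24 translation factors 16 rose, among them Eif4ebp1, a brake on cap-dependent translation (2.97), Eif5a, the hypusinated factor (2.09), and Eif4e, the cap-binding protein (1.73, with other probes of -0.98 and 1.12). The abundant elongation factors Eef1a1 and Eef2 were at 0.04 and -0.19. Proteasome subunits rose in 15 of 26 cases, up to 1.87 for Psmd1 (0.19 to 1.93 by its other probes). The heat shock list was split: Hspd1, the mitochondrial chaperonin, rose by 2.15 and Hspa9 by 1.70, whereas the inducible Hspa1b fell from 1.72 to -3.75 (-5.47) and Hspa1a from 1.79 to -1.48 (-3.27). On the WT arrays Hspa1b and Hspa1a fell too, by 5.55 and 3.95.

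Metabolic genes rose in 46 of 93 cases and fell in 5. In the nucleotide, serine and one-carbon list 16 of 24 rose and 1 fell. Psat1 and Phgdh, early enzymes of serine synthesis, went from 0.94 to 3.84 (2.90) and from -0.88 to 1.68 (2.55). Shmt2, the mitochondrial serine hydroxymethyltransferase, went from 1.38 to 4.23 (2.85), and Ctps, which makes CTP, from 0.01 to 2.77 (2.76). Mthfd1l rose by 2.09 on its brightest probe, while its other probe fell from 2.19 to -1.89 (-4.08) and changed by 0.35 on the WT arrays. Of 9 polyamine genes 3 rose, namely Srm (3.09), Odc1 (2.64) and Sms (1.37), and 6 stayed within 2-fold. Of 11 amino acid transporters 6 rose, among them Slc7a5, the light chain of the leucine transporter LAT1 (from 0.73 to 3.57, 2.85), and Slc7a1, Slc1a5 and Slc7a6 (1.99 to 2.29).

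Glycolysis was induced in part, in 8 of 20 genes. Hk2, the inducible hexokinase, was not well above background in naive cells and rose at least 9.71-fold (3.28). The lactate transporter Slc16a1 rose by 2.64, Pgam1 by 1.78 and Aldoa by 1.29, whereas the glucose transporter Slc2a3 fell by 1.08 and Gapdh changed by 0.45. Of 17 cholesterol genes 8 rose and 2 fell. Idi1 went from 3.24 to 5.92 (2.68), and Sqle, Cyp51 and Insig1 rose by 2.39 to 2.42. Abcg1, which exports cholesterol, had a naive signal of 1.82 and fell by 2.81. Among the stress-response genes Asns, asparagine synthetase, rose by 2.45 and the factor Atf4 by 1.08.

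In the BCL2 family, which holds survival and death genes, 4 of 13 genes rose and 1 fell. Bcl2l1, encoding the anti-apoptotic Bcl-xL, went from -0.04 to 4.22, a 19.1-fold rise (4.25), and its 4 other probes gave 2.19 to 4.02. Bcl2a1d, an A1 copy whose near-identical paralogues may share its probe, went from 1.23 to 5.22. Bcl2 and Mcl1 were at -0.66 and -0.60. Of the G1 genes 4 of 16 rose and 5 fell. Cdk6 went from -1.41 to 1.73 (3.13; 2.46 to 3.54 by its other probes), against 1.57 on the WT arrays. Cdk4 rose by 1.26. The inhibitors Cdkn2d and Cdkn1b fell from 4.19 to 0.70 (-3.50) and from 1.93 to -0.50 (-2.42), while Cdkn1a rose at least 13.3-fold on its brightest probe (3.73; 0.44 to 1.35 by the others). Of 14 replication and mitosis genes 2 rose, Pcna by 1.14 and Mcm6 by 1.06, and none fell. This is 14.3% higher, beside 9.45% of all genes, and the other 12 stayed within 2-fold.

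Genes were also ranked without regard to family, by the smallest change among their probes, over 6542 genes with at least 2 probes well above background on both arrays. All probes were past 2-fold upward in 418 of them and downward in 325. Irf4, Nr4a2, Tfrc and Tnfsf11 led the increases, followed by Bcat1, which starts the breakdown of branched-chain amino acids, with 3 probes from 3.26 to 5.54. Mapkapk3, a kinase downstream of p38, had 3.19 to 3.42 on 3 probes, Stx11, a syntaxin of cytotoxic granule release, 3.05 to 3.49, and Ehd1, which recycles endosomes, 2.87 to 3.55. The decreases were led by Arl4c, a small GTPase, which went from 3.89 to -0.34 by its brightest probe and fell by 4.01 to 4.23. Kbtbd11 fell by 3.93 to 3.97, Treml2 by 3.84 to 4.06, and Xaf1, an interferon-inducible gene, by 3.60 to 4.56. Igfbp4, which binds insulin-like growth factors, fell by 3.36 to 4.76 and Txnip, which limits glucose uptake, by 3.20 to 3.41. All 15 of the highest and all 15 of the lowest ranked genes moved past 2-fold in the same direction on the WT arrays.

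Agreement between probes was checked for the 7998 genes with at least 2 measured probes. Of the 922 such genes that were over 2-fold higher, all probes were past 2-fold in 456 (49.5%), some in 144, and in 240 the others moved the same way without passing it. In 65 genes no other probe was past 2-fold and at least 1 had the other sign, and in a further 17 another probe was past 2-fold downward. For the 817 lower genes the corresponding numbers were 389 (47.6%), 132, 199, 80 and 17. All probes passed 2-fold in 123 of 160 genes over 4-fold higher (76.9%) and 145 of 219 genes over 4-fold lower (66.2%). These shares do not show closer agreement at large changes, since the other probes had only to pass 2-fold. With 1 threshold of 3-fold for every probe, the shares were 47.2% upward and 42.5% downward. Conversely, of 6259 genes whose brightest probe stayed within 2-fold, another probe was past it in 20.1%. Family members of this kind were Il2ra, Tnfrsf1b (-0.26 and 2.42), Slc3a2 (-0.16, with 1.56 and 1.76), Dusp14 (-0.53, with up to 2.85) and Tnfsf10 (-0.61 and -3.75).

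**Figure D4:**
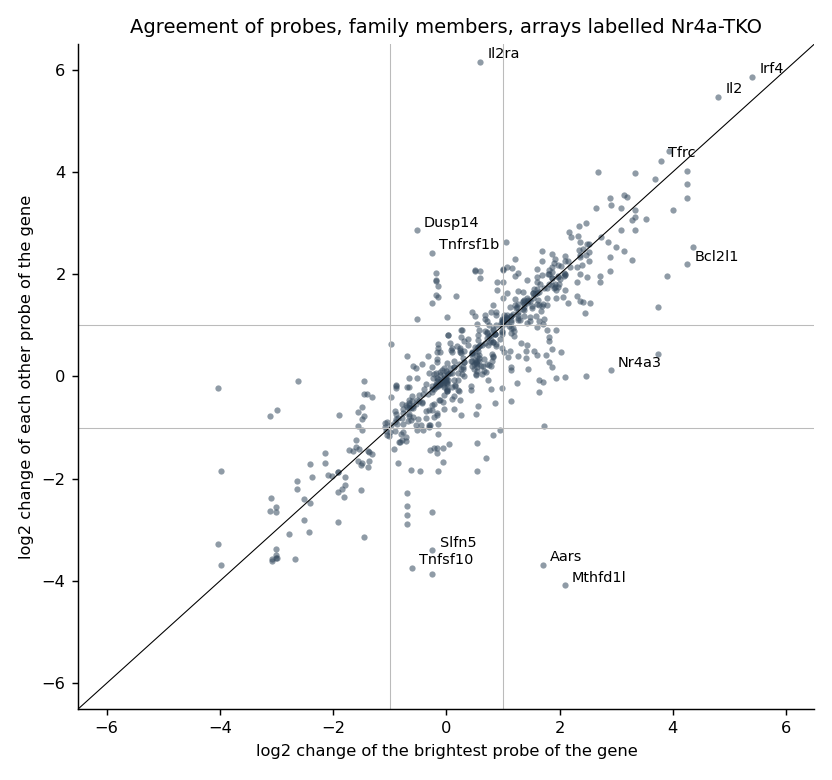
Each point is a probe of a family member other than the gene's brightest one, with its log2 change on the y axis against that of the brightest probe on the x axis, for the arrays labelled Nr4a-TKO; grey lines mark 2-fold and the diagonal marks equality. Most points follow the diagonal, with Il2ra (0.60 and 6.15) and Mthfd1l (2.09 and -4.08) farthest from it among the genes named.

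The same probes were then read on the WT pair, which shares no array with the pair labelled Nr4a-TKO. Of 18807 genes measured there, 1876 were over 2-fold higher (9.98%) and 2190 over 2-fold lower (11.6%). Genes not well above background on either Nr4a-TKO array were left out, so these counts do not cover every gene that changed on the WT arrays. The genes higher on both pairs numbered 1304, which is 68.7% of those higher on the arrays labelled Nr4a-TKO and 69.5% of the 1876. Of the genes higher on the arrays labelled Nr4a-TKO, 1792 were measured on the WT arrays, and 72.8% of these were shared. The genes lower on both pairs numbered 1335, or 61.0% of either set and 67.5% of the 1978 lower genes measured on the WT arrays. By programme the medians on the arrays labelled Nr4a-TKO and the WT arrays were 1.32 on both pairs for biosynthesis, 1.00 and 1.02 for metabolism, 0.40 and 0.46 for signal feedback, -0.71 and -0.78 for naive and quiescence genes, and -1.71 and -1.74 for the interferon response. No interval can be put on these differences with 1 array a group. The Nr4a-TKO cells came from mixed chimeras and the WT cells from hosts of WT marrow alone. Genotype and kind of chimera therefore cannot be told apart. Single genes were farther apart. Rora, Tgfbr1, Cdk6, Cd44, Pdcd1lg2, Lta (3.43 and 2.32) and Cxcr4 rose more on the arrays labelled Nr4a-TKO. Pdcd1lg2 had a lower naive signal there (-3.53 against -1.81 on the WT array), with 3 h signals of -1.19 and -1.52. Irf4, Spry1 and Tnfrsf9 rose more on the WT arrays, where Irf4 and Spry1 had lower naive signals. The changes of Rgs16 (at least 3.38 and 5.62) cannot be ranked, since the first is a bound. Its 3 h signal was -0.61 on the array labelled Nr4a-TKO and 2.54 on the WT array. Klf9 changed by -0.25 on the arrays labelled Nr4a-TKO and by at least 2.78 on the WT arrays by its brightest probe, but its other probe rose on both, by at least 1.43 and 2.61. The same comparison gave 0.56 and at least 2.50 for Fosl1, which was not well above background on the naive WT array.

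**Figure D5:**
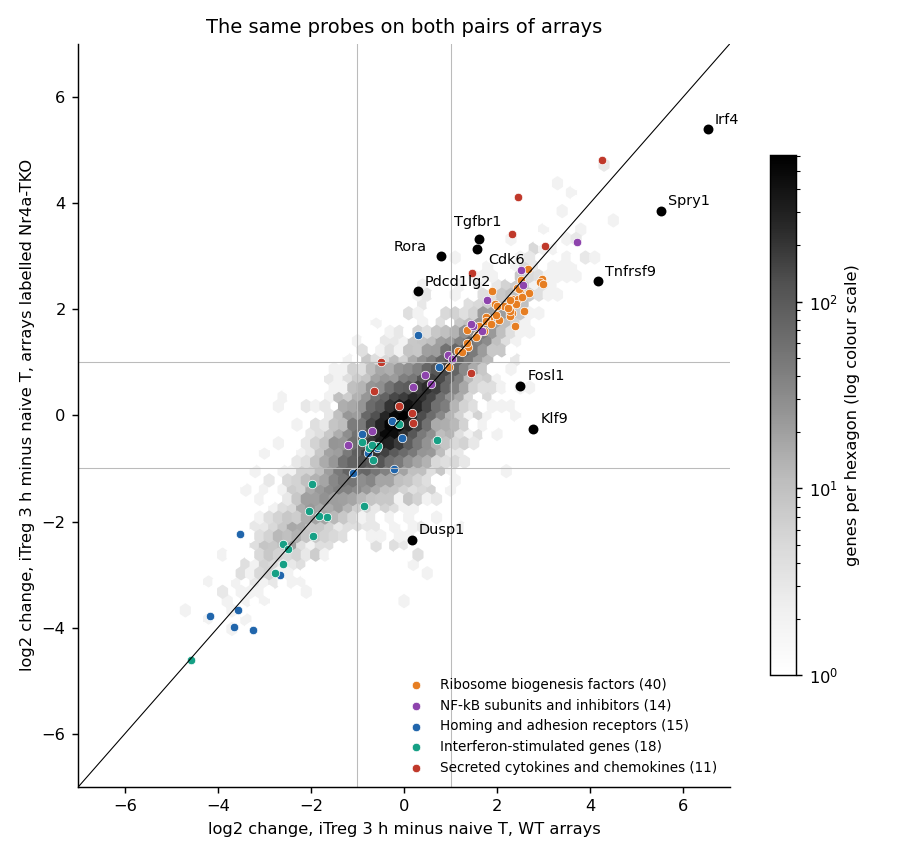
Each gene is placed by its log2 change on the WT arrays (x) and on the arrays labelled Nr4a-TKO (y), with grey hexagons counting all 18807 genes on a log colour scale, coloured points marking 5 families and black points single genes; bounds are drawn at the bound. Ribosome biogenesis factors lie along the line of equality around 2 log2 units, with Rora (3.00 and 0.79) above it and Dusp1 (-2.35 and 0.16) and Klf9 (-0.25 and 2.78 by its brightest probe, at least 1.43 and 2.61 by its other one) below.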

How the data were processed

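RNA of 4 samples was hybridised to 1-colour Agilent arrays. The authors deposited, per array, Feature Extraction 11.5.1.1 output with the spot intensity and a background-subtracted, detrended processed intensity, with probe coordinates on mm9, and a log2 value table that differed from the log2 processed intensity by a constant per array. From these, the log2 processed intensity, scaled to the 75th percentile of non-control spots on each array, was computed in Python 3.11.15 with pandas 2.3.3 and numpy 2.4.6, leaving out 115 to 160 outlier spots per array and averaging spots of a probe. Each array had 59305 non-control spots for 56605 probes. Names came from RefSeq on GRCm38.p6 (41700 probes by current symbol, 1518 by transcript, 520 by synonym), 2574 kept the file's name and 10293 had none. Each gene was represented by its brightest probe (mean of all 4 arrays) among those well above background on either Nr4a-TKO array. Where 1 array was not well above background, its value was raised to the lowest value of a probe well above background there, giving a bound. The threshold was 2-fold, with 1 array a group and no test. The change and call steps were tested on simulated data. The members and lists were chosen with earlier results of these data known. Besides list members, the 15 largest increases and 15 largest decreases were named by the smallest change among at least 2 probes, for genes with a current symbol. Alternatives were other background corrections and scalings with limma 3.58.1 in R 4.3.3, the deposited table, other probe rules, other filters on dim probes, and thresholds of 1.5-fold and 3-fold. Some list members are not reported here by name.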

Additional observations from a re-analysis of the deposited data

Results flagged for a closer look

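Changes past 2-fold in opposite directions on the arrays labelled Nr4a-TKO and on the WT arrays were looked at again. The number was 14 genes for higher on the arrays labelled Nr4a-TKO and lower on the WT arrays, and 31 for the reverse. The difference was not tested, since no group had a replicate. In 33 of these 45 genes the change was a bound on at least 1 pair, and 37 of them had 1 measured probe. The family member among them was Hlx, a homeobox factor of Th1 cells, with a change of -1.09 on the arrays labelled Nr4a-TKO and 1.65 on the WT arrays, both bounds from 1 dim probe. Of the 12 genes measured on all 4 arrays, Il4i1, an amino acid oxidase of immune cells, went from -1.17 to 1.59 (2.75) on the arrays labelled Nr4a-TKO and from 1.38 to -0.12 (-1.51) on the WT arrays. It was chosen after its values were seen.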

How the results depend on the processing

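No paired analysis was possible because each group held 1 array. Values with no replicate were compared with the median SD of 0.28 between probes of a gene, and counts within a factor of 1.5. The numbers of genes over 2-fold higher and lower were 1897 and 2190 as reported. They were 929 and 666 with normexp at an offset of 50, 1191 and 1027 without background correction, 2859 and 3411 without a filter on dim probes, 3555 and 4394 at 1.5-fold and 722 and 969 at 3-fold. The other alternatives gave 1576 to 2151 higher and 1690 to 2181 lower genes. The median change of the interferon response moved from -1.71 to -1.22 with normexp, an offset of 0 and quantile normalization, to -0.57 with an offset of 50, to -0.92 without background correction, to -1.33 with the mean over all probes of a gene and to -1.30 with only probes well above background on both arrays. The medians of the other 7 programmes moved by less than 0.28 under each of the 8 alternatives. That limit is a spread between probes of 1 gene, not of a median over many genes, and is wide for medians near 0. The secreted and surface median went from 0.18 to 0.04 with an offset of 50 and to 0.39 with the mean over all probes. The share of genes whose every probe was past the threshold was 54.1% upward and 55.3% downward at 1.5-fold, and 42.5% downward at 3-fold. With the mean over all probes, Aars changed to -0.17 and Mthfd1l to -0.997, both from a rise. Of the 361 named genes past 2-fold, 285 to 361 stayed past it in the same direction under 7 changes of background, scaling, probe rule or filter, as did 346 of 347 where both arrays had to be well above background. The causes of these shifts were not tested. A dim probe gives only a bound, and 1 array a group leaves the spread between mice unknown.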
